A study of Mus musculus with 13 samples.

Results

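Status epilepticus (SE), a seizure that does not end by itself, was induced with pilocarpine in mice that carried Nestin-Cre and intact Lin28a alleles (Nestin-Cre::Lin28a+/+, here WT), and hippocampal RNA was sequenced at day 3. The 6 libraries described here are all the WT libraries among the 13 of the series, with 3 saline-treated sham libraries (sham-WT 1 to 3) and 3 libraries after SE (SE-WT 1 to 3), each given as a separate biological replicate. Mice were 6 weeks old and of both sexes at treatment. Mice of the SE-WT group received scopolamine methyl nitrate and terbutaline before pilocarpine (260 mg/kg in males, 280 mg/kg in females), and had their seizures stopped with diazepam. Cre is driven by the Nestin promoter in sham-WT and SE-WT alike, so neither group is a mouse without a transgene, and SE-WT holds only mice that showed SE. The sex of each mouse is not labelled. Counts were given for 45777 genes, of which 20803 passed a filter on low counts and were compared between the groups.

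Pilocarpine activates muscarinic acetylcholine receptors and is widely used to model temporal lobe epilepsy in rodents. Prolonged seizures injure hilar and pyramidal neurons. In the days after, microglia, the resident phagocytes of the brain, multiply and take up debris, while astrocytes enlarge and build up intermediate filaments, a state called reactive gliosis. Granule cells of the dentate gyrus are known to lose the calcium buffer calbindin after seizures, and progenitors of the subgranular zone divide more. Immediate early genes are transcription factors and other regulators that neurons switch on within minutes of activity.

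Totals ranged from 59659977 to 84354243 counts per library, so that a count of 0, taken as fewer than 3 counts, allowed at most 0.0360 to 0.0503 CPM (counts scaled to a common library size) by counting error alone. Replicates differed far beyond sampling noise, and SE-WT libraries differed from each other more than sham-WT libraries did. Genes of granule cells and CA pyramidal neurons were present in every library, with summed levels of 607 to 737 CPM and 1152 to 1437 CPM in sham-WT. Genes of striatal neurons, which hippocampus should hardly contain, summed to 251 to 272 CPM in sham-WT and 298 to 3226 CPM in SE-WT, with the highest value in SE-WT 2. Genes of thalamic neurons summed to 339 to 431 CPM in sham-WT and 375 to 1771 CPM in SE-WT, highest in SE-WT 3, where mitochondrial rRNA also took 4.83% of counts against 0.636% to 1.66% elsewhere. Choroid plexus genes ranged widely within both groups, at 355 to 7225 CPM in sham-WT and 228 to 1154 CPM in SE-WT. Results are therefore given with all 6 libraries and without SE-WT 2, and the part of tissue from outside the hippocampus in them was not tested. In RNA of whole tissue, fewer cells of a type and less RNA per cell cannot be told apart, nor can more cells and more RNA per cell.

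With all 6 libraries, 951 genes rose (4.57% of those tested) and 173 fell (0.832%) at an adjusted p of 0.05. The rises were also the larger changes. Among them 431 were at least 4-fold and 97 at least 16-fold, whereas 15 of the falls reached 4-fold and 2 reached 16-fold. The median log2 fold change was 1.88 over the genes that rose, -0.88 over those that fell and 0.015 over all genes tested. Protein-coding genes made up 904 of the rises, and 28 were long noncoding RNAs, which is 5.72% of the coding and 0.916% of the long noncoding genes tested. Every called gene was separated without overlap between the 6 libraries, as were 29.1% of all genes tested, so that separation by itself is common in these data. SE-WT 1 had the highest level of 489 of the genes that rose, against 218 for SE-WT 2 and 244 for SE-WT 3. With SE-WT 2 left out, 976 genes rose (4.55% of 21462 tested) and 204 fell (0.951%), 806 rises and 109 falls were called in both fits, and 0 genes were called in opposite directions. The count of falls depended on single libraries more than that of rises did: with each library left out in turn, rises ranged from 279 to 976 and falls from 8 to 329, both being fewest without sham-WT 2.

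A minority of these genes belong to the groups described here. Of 61 lists of cell type markers and pathways, 44 held at least 1 called gene, 33 held rises only and 6 held falls only. The lists took in 267 of the genes that rose and 16 of those that fell.

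**Figure D1:**
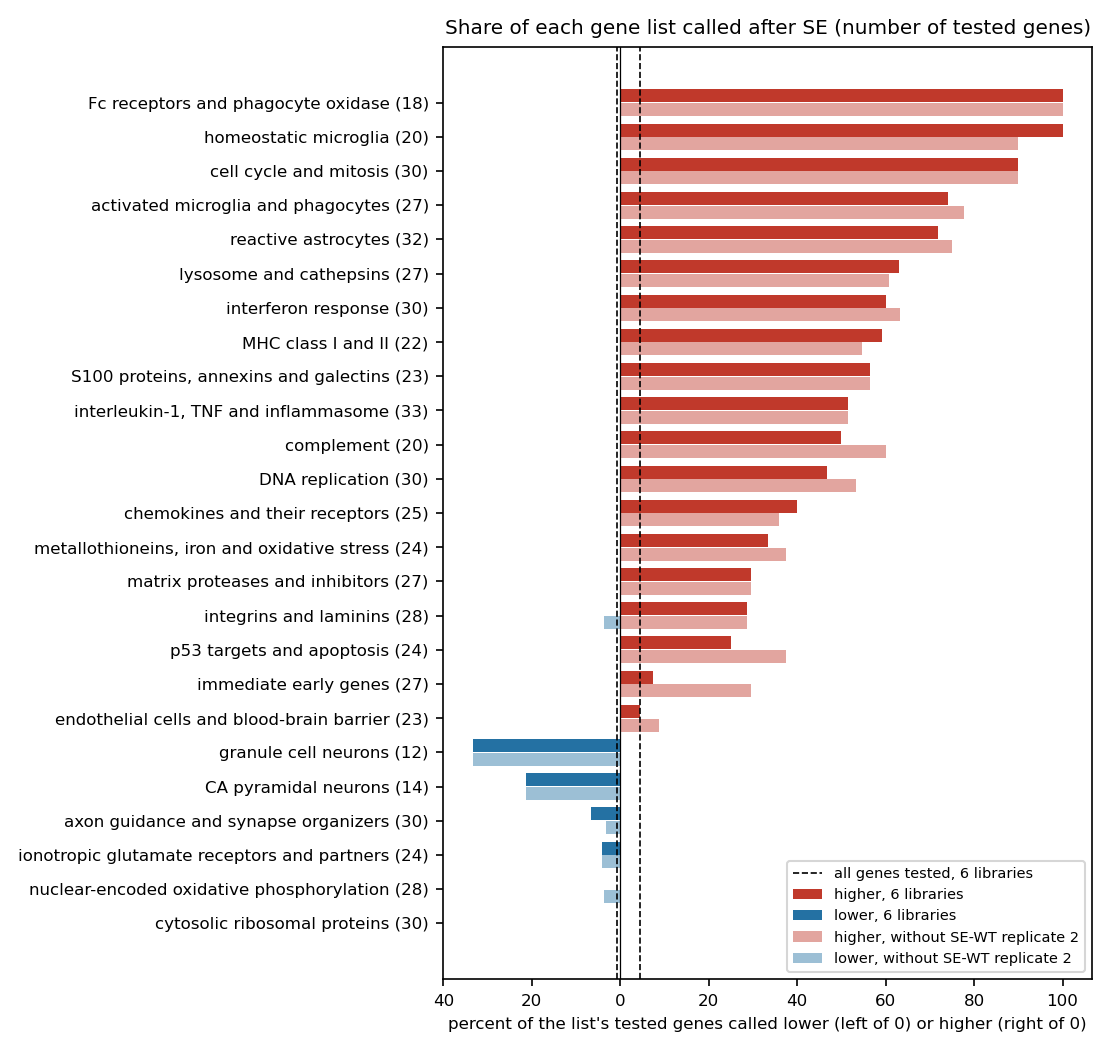
Percent of the tested genes of 25 lists called higher (bars to the right of 0) or lower (bars to the left) in SE-WT, with all 6 libraries in dark and without SE-WT 2 in pale colours; dashed lines mark the 4.57% and 0.832% of all genes tested. Lists of phagocytes, microglia, dividing cells and reactive astrocytes reach furthest to the right, the granule cell and CA pyramidal lists furthest to the left, and the immediate early list is the one whose bar grows most without SE-WT 2.

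**Figure D2:**
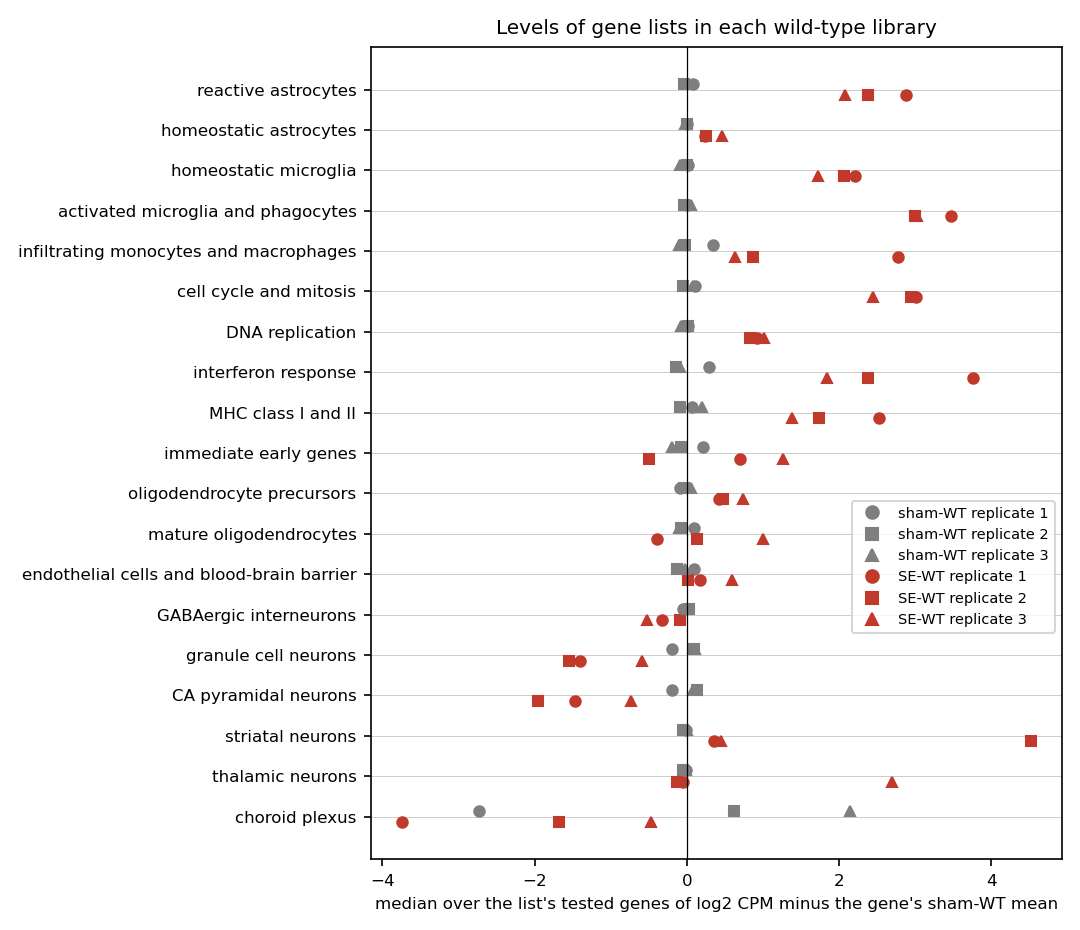
Level of 19 gene lists in each of the 6 WT libraries, on a log2 scale, each gene being set against its mean in sham-WT and the median taken over the list; grey points are sham-WT and red points SE-WT, with the replicate given by the marker. Lists of astrocytes, microglia, oligodendrocyte precursors, dividing cells and interferon response lie to the right of 0 in all 3 SE-WT libraries. Mature oligodendrocyte genes lie to the left of 0 in SE-WT 1, at -0.39. Striatal genes stand at 4.52 in SE-WT 2, thalamic genes at 2.69 in SE-WT 3, and choroid plexus genes spread over both groups.

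Reactive astrocyte genes rose together. Of 32 tested genes, 23 rose and 0 fell (24 rose without SE-WT 2), with a median log2 fold change of 2.84 over the list. Vim, which encodes the filament protein vimentin, was at 38.7, 28.6 and 34.4 CPM in sham-WT and 852, 684 and 769 CPM in SE-WT. Its sham-WT libraries were all low and its SE-WT libraries all high, far from overlapping, and the log2 fold change was 4.5 (adjusted p = 4.28e-04, with a standard error of 0.18). Gfap, the filament gene that defines astrocytes, was at 296, 360.1 and 324 CPM in sham-WT and 2726, 2672 and 2532 CPM in SE-WT. The 3 SE-WT values of Gfap lay close together, and the log2 fold change was 3.02 (adjusted p = 4.28e-04, with a standard error of 0.14). Serpina3n, a secreted protease inhibitor of reactive astrocytes whose reads may be shared with its close paralogs, was at 19.4, 28 and 30.5 CPM in sham-WT and 413, 386 and 418 CPM in SE-WT, a log2 fold change of 3.97 (adjusted p = 6.06e-04). Cd44, the hyaluronan receptor, went from 5.73, 6.91 and 4.02 CPM to 56.5, 33.6 and 66.1 CPM (log2 fold change 3.23, adjusted p = 0.00285), and Hspb1, a small heat shock protein, from 2.72, 2.27 and 2.75 CPM to 18.7, 12.6 and 23 CPM (log2 fold change 2.81, adjusted p = 0.00259). Tnc, the matrix protein tenascin-C, rose by less (log2 fold change 1.32, adjusted p = 0.00408). The filament list showed the same members in front, since Vim, Gfap, Nes and Tubb6 were 4 of its 5 rises among 20 genes. Nes, the filament of neural progenitors and also of reactive astrocytes, had a log2 fold change of 2.41 (adjusted p = 0.00673), and Tubb6, a beta-tubulin, of 4.22 (adjusted p = 0.00514). Per transcript length, by the deposited TPM values, which divide by length before scaling to the library, Gfap was at 149.7 ± 28.6 TPM (SD, n = 3) in sham-WT and 1299 ± 159.4 TPM (SD, n = 3) in SE-WT, and Vim at 22.8 ± 1.35 TPM (SD, n = 3) in sham-WT and 568 ± 119.7 TPM (SD, n = 3) in SE-WT. Gfap was above Vim in TPM in all 6 libraries.

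Genes that mark astrocytes at rest moved less. Of 20, 4 rose and 0 fell, and the median log2 fold change was 0.40. The 4 were Aldh1l1, a folate enzyme used as a pan-astrocyte marker, Aqp4, the water channel of the endfeet, Kcnj10, the potassium channel Kir4.1, and Sox9, a transcription factor of glial fate. Aldh1l1 was at 64.2, 57.6 and 63 CPM in sham-WT and 166, 216 and 182 CPM in SE-WT, with every SE-WT library above every sham-WT library (log2 fold change 1.61, adjusted p = 0.00186). Aqp4 was at 312, 314 and 270.4 CPM in sham-WT and 659, 661 and 713 CPM in SE-WT, and its values hardly varied within either group (log2 fold change 1.18, adjusted p = 0.00329). Kcnj10 rose from 62.8, 71.2 and 68.9 CPM to 172, 150.3 and 295 CPM, with SE-WT 3 highest (log2 fold change 1.6, adjusted p = 0.0160). Sox9 had a log2 fold change of 1.0 (adjusted p = 0.0359).

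Promoter sequence is shown for 3 lists, in each for the 2 members with the smallest p among those with a promoter in the RefSeq table, so that the letters behind each group can be seen. Each run is 250 bases before to 50 bases after the RefSeq start on GRCm38.p6, 5′ to 3′ on the gene's strand, with matches to any of 10 searched motifs in capitals. The motifs, each searched on both strands, were a STAT site (TTCCNGGAA), an AP-1 site (TGACTCA), a CRE (TGACGTCA), the CCAAT box (CCAAT), E2F sites (TTTGGCGC and TTTCCCGC), the core of an interferon-stimulated response element (GAAANNGAA), a kappaB core (GGANTTTCC), a sterol regulatory element core (TCACNCCAC) and an ETS site of myeloid genes (GAGGAAGT). The Vim promoter lies at chr2:13574061-13574360 (+) and the Gfap promoter at chr11:102897151-102897450 (-).
Vim: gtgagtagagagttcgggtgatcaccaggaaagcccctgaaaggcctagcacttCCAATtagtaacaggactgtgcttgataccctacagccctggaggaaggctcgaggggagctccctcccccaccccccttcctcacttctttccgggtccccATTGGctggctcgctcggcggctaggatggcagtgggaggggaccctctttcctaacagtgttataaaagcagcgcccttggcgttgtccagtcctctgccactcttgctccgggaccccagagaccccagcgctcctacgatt
Gfap: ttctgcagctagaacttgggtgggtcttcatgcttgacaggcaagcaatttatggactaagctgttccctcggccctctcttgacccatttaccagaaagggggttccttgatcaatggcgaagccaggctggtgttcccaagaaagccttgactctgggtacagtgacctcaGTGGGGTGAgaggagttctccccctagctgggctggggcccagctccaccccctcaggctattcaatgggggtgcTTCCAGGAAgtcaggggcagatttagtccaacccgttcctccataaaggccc
The capitals in the Gfap promoter mark a sterol regulatory element core on the opposite strand, whose first printed base is at -77 from the start, and a STAT site at -2. Those in the Vim promoter mark CCAAT boxes at -196 and, on the opposite strand, at -94. The STAT site was in 7.14% of 28 reactive astrocyte promoters, which is 2 promoters, and 1.15% of all 27025 promoters, and the AP-1 site in 10.7% and 5.17%. In the 738 promoters of genes that rose, the STAT site was in 1.355% and the AP-1 site in 6.10%. In the 136 promoters of genes that fell, they were in 3.68%, which is 5 promoters, and 1.47%. Called genes come only from genes tested, and in the 14771 promoters of genes tested the STAT site was in 1.22% and the AP-1 site in 3.81%. A match is a string of letters and does not show that a factor was bound.

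Microglial genes rose as a group as well. All 20 tested markers of resting microglia rose, 18 of them also without SE-WT 2, with a median log2 fold change of 2.04. C1qb, a chain of the complement recognition molecule C1q, was at 24.3, 19.4 and 23 CPM in sham-WT and 196, 159.1 and 147 CPM in SE-WT, which left a wide gap between the groups, with a log2 fold change of 2.91 (adjusted p = 8.35e-04, with a standard error of 0.16). C1qa and C1qc, the partner chains, had log2 fold changes of 2.58 and 2.74. Olfml3, a secreted protein typical of microglia, was at 20.9, 19.8 and 22 CPM in sham-WT and 134, 116 and 103 CPM in SE-WT, again with no overlap (log2 fold change 2.49, adjusted p = 8.35e-04). Itgam, the integrin CD11b shared by myeloid cells, went from 19.4, 20.6 and 21 CPM to 107, 82.9 and 91.5 CPM (log2 fold change 2.21, adjusted p = 9.57e-04). Cx3cr1, the fractalkine receptor, was the member among those named with the smallest change, from 30.2, 38.8 and 32.8 CPM to 77.4, 81.5 and 119.6 CPM (log2 fold change 1.45, adjusted p = 0.00889).

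Of 27 genes of activated microglia and phagocytes, 20 rose and 0 fell, with a median log2 fold change of 3.3 over the list. Clec7a, the beta-glucan receptor dectin-1, was at 0.406, 0.513 and 0.252 CPM in sham-WT and 14.7, 20.8 and 11.3 CPM in SE-WT. Its sham-WT levels were all under 1 CPM and its SE-WT levels all above 10 CPM, with a log2 fold change of 5.3 (adjusted p = 0.00110, with a standard error of 0.38). Ctsd, the lysosomal protease cathepsin D, was at 411, 369 and 439 CPM in sham-WT and 2319.7, 2253 and 1729 CPM in SE-WT (log2 fold change 2.37, adjusted p = 0.00110). Ctsz, another cathepsin, had a log2 fold change of 2.46 (adjusted p = 9.57e-04), and Cd9, a tetraspanin, of 1.81 (adjusted p = 0.00118). Ch25h, which makes 25-hydroxycholesterol, was nearly absent in sham-WT at 0.295, 0.18 and 0.117 CPM and was at 7.88, 5.16 and 3.89 CPM in SE-WT (log2 fold change 4.8, adjusted p = 0.00284).

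The machinery of uptake and digestion was among the groups with the most rises. All 18 genes of Fc receptors, their signaling kinases and the phagocyte oxidase rose, with and without SE-WT 2, and all 18 had their highest level in SE-WT 1. Fcgr3, a low-affinity Fc receptor that may share reads with its paralogs, was at 16.6, 11.8 and 12.1 CPM in sham-WT and 89.2, 85.4 and 62.7 CPM in SE-WT, every SE-WT value being above every sham-WT value (log2 fold change 2.55, adjusted p = 0.00167). Ncf1, a cytosolic subunit of the oxidase, was at 5.02, 4.84 and 6.62 CPM in sham-WT and 38.5, 26.9 and 29.9 CPM in SE-WT, likewise without overlap (log2 fold change 2.53, adjusted p = 0.00167). Lyn and Inpp5d, a kinase and a phosphatase downstream of these receptors, had log2 fold changes of 2.17 (adjusted p = 0.00273) and 1.79 (adjusted p = 0.00296). Of 27 lysosomal genes, 17 rose and 0 fell, with a median log2 fold change of 1.27. Cd68, a lysosomal membrane glycoprotein of phagocytes, was at 3.07, 3.33 and 4.29 CPM in sham-WT and 31, 21.8 and 33.9 CPM in SE-WT, with SE-WT 2 the lowest of its group but clear of sham-WT (log2 fold change 3.02, adjusted p = 0.00142). Gusb, the lysosomal beta-glucuronidase, had a log2 fold change of 2.14 (adjusted p = 0.00167). Of 20 complement genes, 10 rose and 0 fell, and of 28 integrin and laminin genes 8 rose and 0 fell. Itga5, the fibronectin receptor subunit, went from 0.811, 0.693 and 0.738 CPM to 7.82, 6.0 and 5.89 CPM (log2 fold change 3.13, adjusted p = 0.00167), and Itgb2, the common chain of leukocyte integrins, from 5.26, 3.74 and 4.83 CPM to 39, 28 and 21.6 CPM (log2 fold change 2.68, adjusted p = 0.00284).

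**Figure D3:**
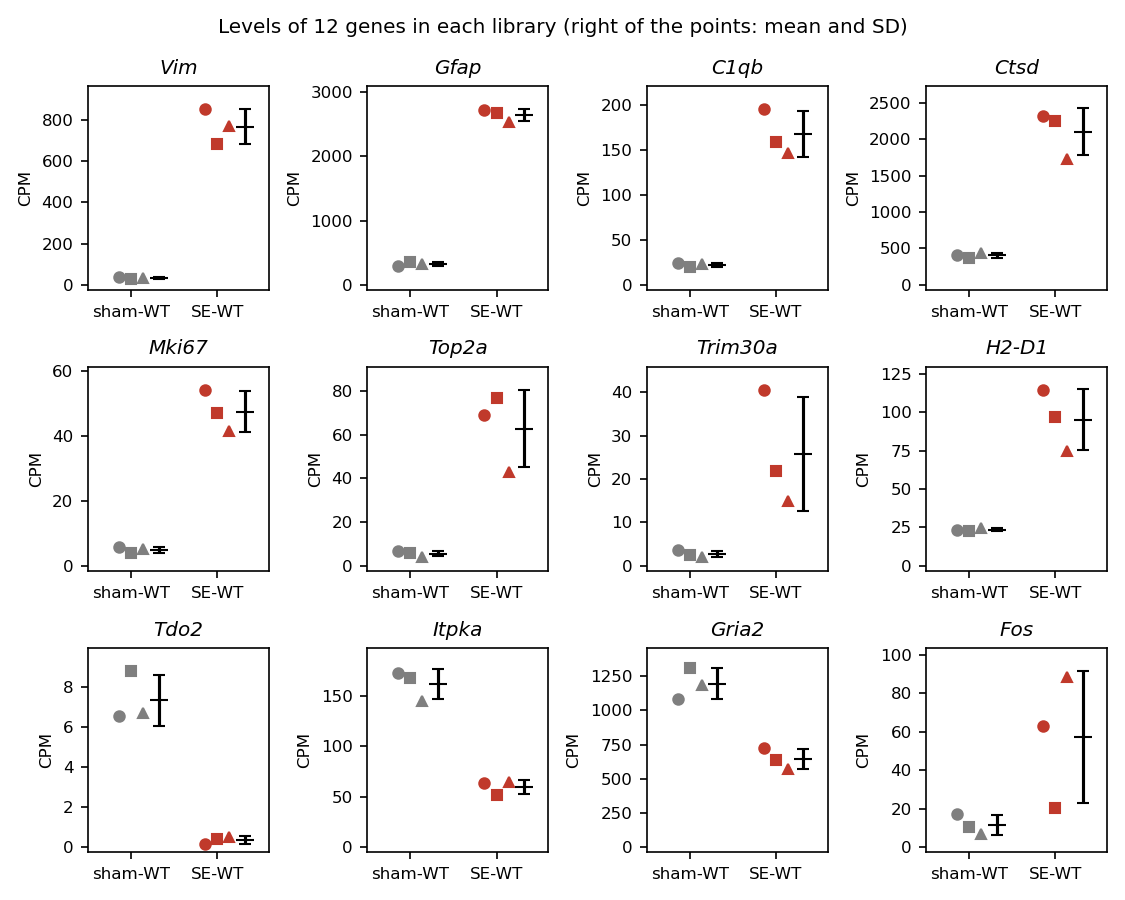
Levels in CPM of 12 genes in each library, with sham-WT in grey, SE-WT in red and the mean and SD (n = 3) to the right of each group. The first 8 panels show called rises and the next 3 called falls, all without overlap between the groups, while for Fos in the last panel SE-WT 2 sits just above the sham-WT points.

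Genes of dividing cells rose nearly as a whole list. Of 30 genes of the cell cycle and mitosis, 27 rose and 0 fell, with and without SE-WT 2, and the median log2 fold change was 2.77. Aurkb, Ttk and Anln, named after their values were seen, did not pass, with log2 fold changes of 3.44, 2.78 and 0.093. Mki67, which encodes the proliferation marker Ki-67, was at 5.75, 3.9 and 5.28 CPM in sham-WT and 54.2, 47 and 41.5 CPM in SE-WT. In each SE-WT library it stood several times above the highest sham-WT library (log2 fold change 3.26, adjusted p = 9.57e-04). Top2a, the topoisomerase that untangles replicated DNA, was at 6.6, 6.01 and 4.16 CPM in sham-WT and 68.8, 76.5 and 42.8 CPM in SE-WT, lowest in SE-WT 3 but without overlap (log2 fold change 3.49, adjusted p = 0.00170). Prc1, which bundles microtubules of the mitotic midzone, was at 1.34, 1.51 and 1.17 CPM in sham-WT and 20.0, 25.8 and 14.9 CPM in SE-WT, a log2 fold change of 3.91 (adjusted p = 0.00100, with a standard error of 0.26). Cenpf, a kinetochore protein, had a log2 fold change of 2.87 (adjusted p = 0.00110). Of 30 genes of DNA replication, 14 rose and 0 fell (16 rose without SE-WT 2), with a median of 1.0. Rrm2, the regulated subunit of ribonucleotide reductase, was at 2.21, 2.04 and 2.77 CPM in sham-WT and 18, 15.8 and 16.4 CPM in SE-WT, with hardly any spread in either group (log2 fold change 2.84, adjusted p = 0.00100). Tk1, the thymidine kinase of S phase, went from 0.135, 0.444 and 0.335 CPM to 5.52, 3.48 and 4.67 CPM (log2 fold change 3.9, adjusted p = 0.00575). Mcm3 and Mcm5, subunits of the replicative helicase, had log2 fold changes of 2.33 and 1.45. Genes that mark neural progenitors and newborn neurons did not move with these. Of 19, 1 rose and 0 fell, against 4.57% and 0.832% of all genes tested. The rise was Nes, and the median log2 fold change was 0.040. Without SE-WT 2, 1 rose and 1 fell. The fall was Hopx, at 85.1, 84.6 and 86.3 CPM in sham-WT and 41.8, 9.71 and 44.8 CPM in SE-WT. Its log2 fold change was -1.41 (adjusted p = 0.166) with 6 libraries and -0.97 (adjusted p = 0.00608) without SE-WT 2. Sox11, a transcription factor of newborn neurons, was at 22.7, 28.4 and 21.1 CPM in sham-WT and 26.9, 133 and 65.7 CPM in SE-WT, so that SE-WT 1 lay inside the sham-WT range and SE-WT 2 far above it (log2 fold change 1.64, adjusted p = 0.124).

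CCAAT boxes were frequent in the promoters of the cell cycle list, which is a property of the list and not of these libraries. The promoters of Mki67 at chr7:135716330-135716629 (-) and Prc1 at chr7:80294201-80294500 (+) are printed in the same way, and their capitals are all CCAAT boxes (CCAAT, or ATTGG where the box is on the opposite strand).
Mki67: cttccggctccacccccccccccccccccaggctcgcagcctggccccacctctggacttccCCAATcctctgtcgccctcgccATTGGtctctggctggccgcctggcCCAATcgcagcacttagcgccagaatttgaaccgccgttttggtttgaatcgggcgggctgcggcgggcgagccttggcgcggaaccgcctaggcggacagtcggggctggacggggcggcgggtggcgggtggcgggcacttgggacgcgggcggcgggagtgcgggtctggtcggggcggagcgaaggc
Prc1: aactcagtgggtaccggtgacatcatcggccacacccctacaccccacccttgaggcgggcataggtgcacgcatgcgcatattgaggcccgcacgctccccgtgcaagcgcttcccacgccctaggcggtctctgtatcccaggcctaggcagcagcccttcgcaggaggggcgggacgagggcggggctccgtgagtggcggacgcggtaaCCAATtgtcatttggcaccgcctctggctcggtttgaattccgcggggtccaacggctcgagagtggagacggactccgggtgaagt
In Mki67 the boxes begin at -188, -166 (opposite strand) and -141 from the start, and in Prc1 at -37. Such a box was in 22 of 25 cell cycle promoters (88%), against 37.9% of all promoters, 38.1% of promoters of genes tested and 41.7% of the 738 genes that rose and had a promoter in the table. DNA replication promoters held the E2F site TTTGGCGC (either strand) in 20.8% of 24, against 0.536% of all promoters, and the form TTTCCCGC in 16.7% against 1.11%.

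Interferon response genes rose, and by amounts that differed between the SE-WT libraries. Of 30 tested genes, 18 rose and 0 fell, with a median log2 fold change of 2.91. The median level of the list over its sham-WT mean was 3.76, 2.38 and 1.84 in SE-WT 1, 2 and 3 on the log2 scale. All 30 genes were highest in SE-WT 1 and 28 were lowest in SE-WT 3 among the SE-WT libraries. Ifi27l2a, an interferon-induced membrane protein, was at 0.811, 0.569 and 0.386 CPM in sham-WT and 46, 25.4 and 8.94 CPM in SE-WT. SE-WT 1 thus held several times the level of SE-WT 3, which itself was far above sham-WT, and the log2 fold change was 5.49 (adjusted p = 0.00541, with a standard error of 0.67). Trim30a, an interferon-induced ubiquitin ligase of a family with close copies, was at 3.58, 2.62 and 2.03 CPM in sham-WT and 40.5, 21.8 and 15 CPM in SE-WT, in the same order (log2 fold change 3.23, adjusted p = 0.00678). Bst2, the antiviral protein tetherin, went from 1.78, 1.58 and 3.1 CPM to 26.4, 14.2 and 9.67 CPM (log2 fold change 2.96, adjusted p = 0.0133). Irf8, a transcription factor that microglia also use at rest, varied little, at 4.51, 3.54 and 3.64 CPM in sham-WT and 23, 21.4 and 20.1 CPM in SE-WT (log2 fold change 2.46, adjusted p = 0.00110).

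Promoters of 2 interferon list genes are shown with matches in capitals, that of Irf8 at chr8:120736108-120736407 (+) and that of Trim30a at chr7:104465144-104465443 (-).
Irf8: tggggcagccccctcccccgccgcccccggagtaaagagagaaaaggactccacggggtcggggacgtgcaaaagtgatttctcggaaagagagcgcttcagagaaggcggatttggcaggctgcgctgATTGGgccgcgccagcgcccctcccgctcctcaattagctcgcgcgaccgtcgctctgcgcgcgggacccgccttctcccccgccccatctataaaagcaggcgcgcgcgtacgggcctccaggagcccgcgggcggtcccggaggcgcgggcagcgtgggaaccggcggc
Trim30a: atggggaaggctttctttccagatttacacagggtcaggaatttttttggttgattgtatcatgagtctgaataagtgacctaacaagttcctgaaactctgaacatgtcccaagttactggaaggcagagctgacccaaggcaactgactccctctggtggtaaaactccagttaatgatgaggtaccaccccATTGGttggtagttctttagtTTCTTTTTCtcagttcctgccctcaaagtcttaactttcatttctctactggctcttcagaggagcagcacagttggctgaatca
The capitals in Trim30a mark a CCAAT box at -56 and the core of an interferon-stimulated response element at -35, both on the opposite strand. Those in Irf8 mark a CCAAT box on the opposite strand at -121. The interferon response core was in 16 of 23 promoters of the list (69.6%), in 12.5% of promoters of genes that rose, in 7.37% of promoters of genes tested, and in 8.57% of all promoters on either strand.

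Antigen presentation genes followed the same order of libraries. Of 22 MHC class I and II genes, 13 rose and 0 fell, and the list stood at 2.53, 1.73 and 1.39 over sham-WT in SE-WT 1, 2 and 3. H2-D1, a class I heavy chain, was at 23.3, 22.7 and 24.7 CPM in sham-WT and 115, 96.6 and 74.5 CPM in SE-WT, and B2m, the light chain of class I, at 57.2, 45.9 and 45.1 CPM in sham-WT and 286, 209 and 126 CPM in SE-WT. Both had SE-WT 1 highest and SE-WT 3 lowest, with log2 fold changes of 2.01 (adjusted p = 0.00187) and 2.07 (adjusted p = 0.0101). H2-K1, another heavy chain, and Psmb8, a subunit of the immunoproteasome, had log2 fold changes of 2.13 (adjusted p = 0.00862) and 2.38 (adjusted p = 0.0130). The class II chains H2-Aa, H2-Ab1 and H2-Eb1 did not pass, at 1.82 (adjusted p = 0.283), 1.11 (adjusted p = 0.327) and 0.97 (adjusted p = 0.571), and were named after their values were seen. Reads of the class I heavy chains may be shared among these near-identical genes.

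Cytokine and chemokine genes were low in sham-WT and rose in part. Of 25 chemokine and receptor genes, 10 rose and 0 fell, and of 33 genes of interleukin-1, TNF and inflammasome signaling 17 rose and 0 fell. Ccl4, a ligand that attracts monocytes and T cells, had 0 counts in all sham-WT libraries and was at 4.06, 2.84 and 1.66 CPM in SE-WT, at least 66.4-fold higher. Cxcl16, a membrane-bound chemokine, was at 1.16, 0.846 and 1.11 CPM in sham-WT and 11.6, 7.33 and 5.28 CPM in SE-WT (log2 fold change 2.96, adjusted p = 0.00500). Tlr2, the receptor for bacterial lipoproteins, was at 1.48, 1.62 and 1.94 CPM in sham-WT and 32.1, 18.8 and 15.2 CPM in SE-WT, highest in SE-WT 1 and with no overlap (log2 fold change 3.71, adjusted p = 0.00216). Tlr7, an endosomal receptor for single-stranded RNA, Cd14, the co-receptor for lipopolysaccharide, and Tnfrsf1a, the main TNF receptor, had log2 fold changes of 2.72, 2.87 and 2.29. Osm, the cytokine oncostatin M, rose from at or near 0 to 1.15, 0.314 and 0.72 CPM (adjusted p = 0.0454).

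Markers of cells that enter from blood were measured beside these. Of 16 monocyte and macrophage genes, 3 rose and 0 fell, and their summed level was 112 to 146 CPM in sham-WT and 202 to 349 CPM in SE-WT. The list stood at 2.78, 0.88 and 0.64 over sham-WT in SE-WT 1, 2 and 3, so SE-WT 1 again stood out. The 3 rises were S100a4, a calcium-binding protein also made by reactive glia, Ifitm3, an interferon-induced protein, and Vcan, a proteoglycan that oligodendrocyte precursors make too. Chil3, a lectin of monocytes, had 0 counts in sham-WT and was at 8.89, 0.355 and 1.33 CPM in SE-WT (adjusted p = 0.0668, and 0.0257 without SE-WT 2). T cell and neutrophil genes were nearly all absent. Only 6 of 16 passed the filter, 0 were called, and their summed level reached at most 9.44 CPM. Of 6 tested red blood cell genes, 0 rose and 1 fell, with a median log2 fold change of -1.39. The summed level of the list was 325 to 338 CPM in sham-WT and 161 to 209 CPM in SE-WT, without overlap. The globins Hba-a1, Hba-a2 and Hbb-bt did not pass (adjusted p = 0.0760, 0.0529 and 0.327). The part of cells from blood in the rises above was not tested.

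Endothelial genes were called higher about as often as all genes tested. Of 23 endothelial and blood-brain barrier genes, 1 rose and 0 fell (2 rose without SE-WT 2), where 4.57% of all genes tested rose (4.55% without SE-WT 2). The rise with 6 libraries was Icam1, the adhesion molecule that leukocytes bind, at 1.67, 3.0 and 2.1 CPM in sham-WT and 8.2, 5.63 and 7.02 CPM in SE-WT (log2 fold change 1.62, adjusted p = 0.0244). The median of the list was 0.37, 20 of its genes had a log2 fold change above 0, and its summed level was 498 to 535 CPM in sham-WT and 577 to 787 CPM in SE-WT, without overlap. Of 14 pericyte and smooth muscle genes 0 were called, with a median log2 fold change of 0.058. Among 15 fibroblast genes Apod alone rose, at 128, 119.6 and 111 CPM in sham-WT and 484, 318 and 533 CPM in SE-WT (log2 fold change 1.9, adjusted p = 0.00374). Apod, a lipid-carrying apolipoprotein, is also made by glia.

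Matrix and wound-related genes contained several of the steeper rises. Of 23 S100, annexin and galectin genes, 13 rose and 0 fell, with a median of 1.28 on the log2 scale. S100a4 was at 1.25, 1.44 and 1.43 CPM in sham-WT and 23.5, 20.8 and 19.7 CPM in SE-WT, among the tightest separations in the data (log2 fold change 3.96, adjusted p = 4.28e-04). Lgals1, a galectin of reactive glia, was at 12.4, 11.9 and 14.7 CPM in sham-WT and 120.1, 101 and 105 CPM in SE-WT, also with little spread (log2 fold change 3.06, adjusted p = 4.28e-04). S100a6 had a log2 fold change of 3.18 (adjusted p = 6.06e-04), and Lgals3bp, a galectin ligand, of 2.92 (adjusted p = 0.00278). Of 27 matrix proteases and inhibitors, 8 rose and 0 fell. Timp1, an inhibitor of metalloproteinases, was at 0, 0.291 and 0 CPM in sham-WT and 27.4, 12.8 and 11 CPM in SE-WT, so that it was at or near 0 in sham-WT and above 10 CPM in every SE-WT library (log2 fold change 7.41, adjusted p = 0.0143). Mmp19, a metalloproteinase, had a log2 fold change of 3.09 (adjusted p = 0.0142). Of 30 proteoglycan and perineuronal net genes, 7 rose and 1 fell. The fall was Has3, a hyaluronan synthase, at 3.71, 3.92 and 3.89 CPM in sham-WT and 1.13, 1.53 and 1.33 CPM in SE-WT (log2 fold change -1.53, adjusted p = 0.0179), beside rises of the hyaluronan receptor Cd44 and the syndecan Sdc4 (log2 fold change 1.19, adjusted p = 0.00586). Of 21 collagen genes 4 rose, Col5a3, Col16a1, Col27a1 and Col12a1, with log2 fold changes of 2.93, 1.72, 1.91 and 0.93. Col12a1 did not pass without SE-WT 2 (adjusted p = 0.0664).

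Oligodendrocyte genes gave a mixed picture. Of 16 precursor genes, 4 rose and 0 fell, with a median of 0.63. Vcan was at 32.7, 35.5 and 36.2 CPM in sham-WT and 73.4, 100.1 and 54.1 CPM in SE-WT, Ptprz1, a receptor phosphatase, rose by a small but even amount (log2 fold change 0.61, adjusted p = 0.0237), and Gpr17, a receptor of cells about to differentiate, had a log2 fold change of 0.92 (adjusted p = 0.0485). For Vcan the lowest SE-WT value lay above the highest sham-WT value (log2 fold change 1.12, adjusted p = 0.0325). Among 18 genes of mature oligodendrocytes only Trf, the iron carrier transferrin, rose, at 366, 364 and 422 CPM in sham-WT and 980.3, 905 and 1002 CPM in SE-WT (log2 fold change 1.33, adjusted p = 0.00271). Over all genes tested, 4.57% rose. The level of the mature list was -0.39, 0.13 and 1.01 over sham-WT in SE-WT 1, 2 and 3, below sham-WT in SE-WT 1 and above it in SE-WT 3, the library high in thalamic genes.

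Genes of principal neurons fell in part. Of 12 granule cell genes, 0 rose and 4 fell, and of 14 CA pyramidal genes 0 rose and 3 fell, with medians of -0.92 and -1.09 (-0.78 and -0.93 without SE-WT 2). In SE-WT 1, 2 and 3 the granule cell list stood at -1.4, -1.54 and -0.59 and the pyramidal list at -1.47, -1.95 and -0.74 against sham-WT. SE-WT 2, the library with striatal genes, was lowest for both and SE-WT 3 least changed. Tdo2, tryptophan dioxygenase, a marker of mature granule cells, was at 6.54, 8.79 and 6.69 CPM in sham-WT and 0.126, 0.396 and 0.492 CPM in SE-WT. It was nearly absent in all 3 SE-WT libraries, the largest fall among named genes, with a log2 fold change of -4.42 (adjusted p = 0.00405, with a standard error of 0.49). Calb1, the calcium buffer calbindin, was at 118, 148 and 129 CPM in sham-WT and 55.3, 88.6 and 73.6 CPM in SE-WT, a smaller fall with no overlap (log2 fold change -0.86, adjusted p = 0.0487). Trpc6, a cation channel of granule cells, and Plk5, a kinase of neurons, had log2 fold changes of -1.43 (adjusted p = 0.0397) and -1.74 (adjusted p = 0.0271). Itpka, a kinase of dendritic spines, was at 173, 168 and 145 CPM in sham-WT and 63.2, 52.1 and 64.1 CPM in SE-WT, the most even of the pyramidal falls (log2 fold change -1.44, adjusted p = 0.00274). Spink8, a marker of CA1, was at 15.7, 21.4 and 22.8 CPM in sham-WT and 1.27, 2.74 and 5.0 CPM in SE-WT, falling furthest in SE-WT 1 (log2 fold change -2.72, adjusted p = 0.0215). Nr3c2, the mineralocorticoid receptor, was at 212, 289 and 294 CPM in sham-WT and 58.2, 97.4 and 139 CPM in SE-WT (log2 fold change -1.43, adjusted p = 0.0468). Without SE-WT 2 it no longer passed (-1.42, adjusted p = 0.0768).

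Markers shared by all neurons did not pass. Of 14 such genes 0 were called, with a median log2 fold change of -0.13. Their summed level was nevertheless lower after SE, at 6794 to 7499 CPM in sham-WT and 4583 to 6677 CPM in SE-WT, without overlap. Syt1, the calcium sensor of vesicle release, was at 1126, 1144 and 912 CPM in sham-WT and 1045, 528 and 899 CPM in SE-WT, with SE-WT 1 and 3 near sham-WT and SE-WT 2 well below (log2 fold change -0.36, adjusted p = 0.472). Of 18 interneuron genes, 0 rose and 1 fell, the fall being the peptide somatostatin, Sst, at 59.3, 62.9 and 66.9 CPM in sham-WT and 43.9, 42.2 and 44.7 CPM in SE-WT (log2 fold change -0.53, adjusted p = 0.0357, and -0.50, adjusted p = 0.0650, without SE-WT 2). The hilar mossy cell list had 0 calls, and Drd2, one of its members, also marks striatal neurons.

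Calls among ion channel and receptor genes are set here beside all genes tested, of which 4.57% rose and 0.832% fell. Of 30 potassium channel genes, 2 rose and 0 fell, and both rises, Kcnj10 and Kcnk13 (log2 fold change 1.11, adjusted p = 0.0236), are channels found in glia. Among 28 sodium, calcium and HCN channels, Scn3b, a sodium channel beta subunit, fell from 175, 202 and 184 CPM to 74, 96.5 and 94.3 CPM (log2 fold change -1.08, adjusted p = 0.00726). Hcn4, a pacemaker channel subunit, rose from 2.5, 2.19 and 2.36 CPM to 4.64, 12.9 and 19.6 CPM (log2 fold change 2.39, adjusted p = 0.0370, and 2.37, adjusted p = 0.0542, without SE-WT 2). It was lowest in SE-WT 1 and highest in SE-WT 3, the library high in thalamic genes. With 1 library left out in turn, it was called in only 1 of the 6 fits. The part of tissue from outside the hippocampus in this rise was not tested. Of 24 ionotropic glutamate receptor genes Gria2 alone was called. Gria2, the AMPA receptor subunit that keeps calcium out, was at 1087, 1312 and 1187 CPM in sham-WT and 722, 636 and 572 CPM in SE-WT, with all SE-WT libraries below all sham-WT libraries (log2 fold change -0.89, adjusted p = 0.0165). Its partner subunit Gria1 was at 529.5, 806 and 831 CPM in sham-WT and 283, 413 and 525 CPM in SE-WT, and SE-WT 3 came close to sham-WT 1 (log2 fold change -0.83, adjusted p = 0.136). Of 21 GABA receptor and chloride transporter genes 0 were called with 6 libraries. Gabra5, the subunit of extrasynaptic receptors in pyramidal cells, was at 164, 186 and 171 CPM in sham-WT and 50.4, 19.5 and 82.1 CPM in SE-WT, below sham-WT in every SE-WT library. Its spread among the SE-WT libraries was wide (log2 fold change -1.78, adjusted p = 0.0746), and it passed without SE-WT 2 (-1.38, adjusted p = 0.0160). The muscarinic receptor Chrm1, a target of pilocarpine, was at 89.1, 85.4 and 95.1 CPM in sham-WT and 60.2, 68 and 70.2 CPM in SE-WT and did not pass (log2 fold change -0.44, adjusted p = 0.0778). The Eph receptors Epha4 and Epha7, which guide axons and shape spines, fell, Epha4 from 651, 714 and 655 CPM to 287, 229.5 and 350.2 CPM (log2 fold change -1.22, adjusted p = 0.00971) and Epha7 from 173, 247 and 206 CPM to 76, 86.3 and 131 CPM (log2 fold change -1.09, adjusted p = 0.0461, and -1.0, adjusted p = 0.0777, without SE-WT 2).

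The falls outside these lists were mostly of modest size. Among the 12 largest with at least 1 CPM and a call in both fits, Hsd11b1, which regenerates glucocorticoids, was at 41.5, 39 and 31.1 CPM in sham-WT and 11.4, 6.12 and 9.73 CPM in SE-WT, a log2 fold change of -2.03 (adjusted p = 0.00581, with a standard error of 0.25). Npy2r, a presynaptic receptor for neuropeptide Y, was at 50.8, 55.9 and 56.4 CPM in sham-WT and 10.7, 13.7 and 20.2 CPM in SE-WT, also without overlap (log2 fold change -1.87, adjusted p = 0.00613). Kctd4, a member of the potassium channel tetramerization domain family, fell from 90.7, 106 and 86.1 CPM to 24.3, 20.1 and 36.8 CPM (log2 fold change -1.8, adjusted p = 0.00716). Beside Tdo2, Spink8 and Plk5, described above, the other 6 were the interleukin receptor subunit Il20rb, the sulfotransferase Chst9, the adhesion molecule Kirrel2, the keratin Krt73, Fam160a1 and Vwa3a, with log2 fold changes of -2.41, -2.29, -2.19, -2.03, -1.97 and -1.9.

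Some rises started from 0 counts. In all, 53 genes that rose had 0 counts in every sham-WT library, and their size can only be bounded against the 3-count floor of each library. Tgm1, a transglutaminase known from skin that crosslinks proteins, was at 85.5, 62.3 and 52.1 CPM in SE-WT, at least 1552-fold higher, and lies on chromosome 14, 55700009 to 55713921 of GRCm38. All 3 SE-WT libraries were high. Serpina3m, a paralog next to Serpina3n with which it may share reads, was at 8.77, 9.12 and 8.73 CPM, at least 207-fold higher. Cd5l, a scavenger protein of macrophages, was at 7.63, 3.21 and 1.68 CPM, highest in SE-WT 1, and at least 97.2-fold higher. Saa3, an acute-phase apolipoprotein, was at 2.88, 0.382 and 3.54 CPM, at least 52.8-fold higher, and Bcl3, a coregulator of NF-kappaB, at 2.11, 0.819 and 2.68 CPM, at least 43.5-fold higher. In both of these SE-WT 2 was the lowest. The others by the same rule were Lilr4b, Apoc2, Htr2b, Cytip, Cd300lf and Cdkn3, at least 61.7-fold, 45.4-fold, 32.8-fold, 30.9-fold, 29.1-fold and 28.2-fold higher. Lilr4b and Cd300lf are inhibitory receptors of myeloid cells, Apoc2 activates lipoprotein lipase, Htr2b is a serotonin receptor, and Cdkn3 is a phosphatase of dividing cells.

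**Figure D4:**
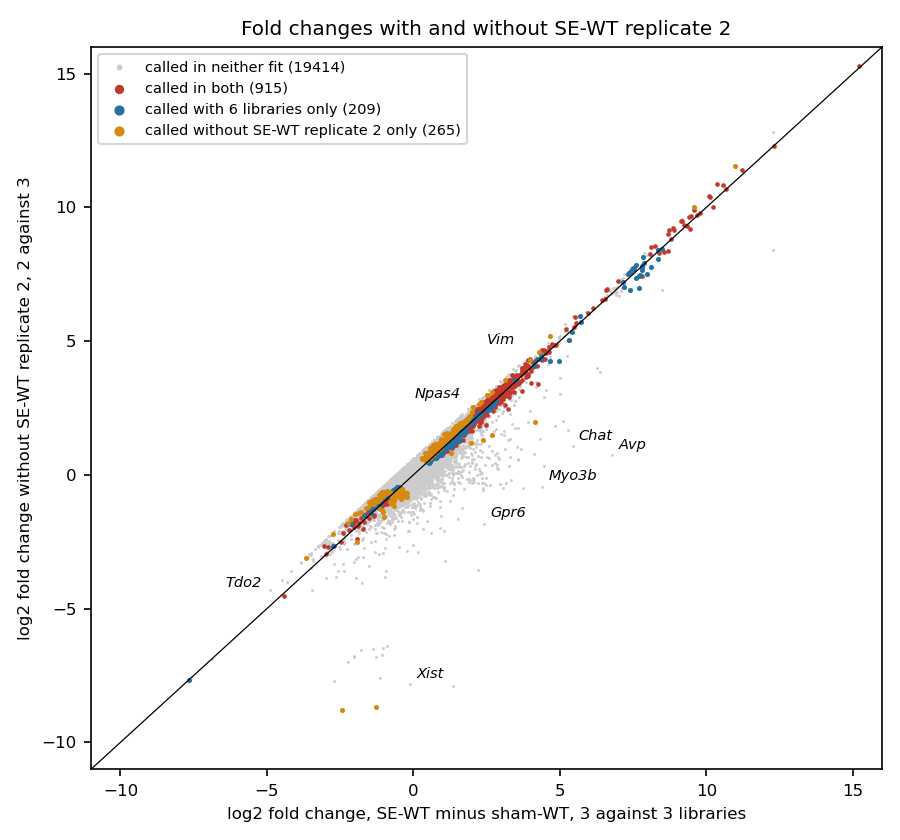
Log2 fold change of each gene tested with all 6 libraries (x axis) and without SE-WT 2 (y axis), with genes called in both fits in red, with 6 libraries only in blue and without SE-WT 2 only in orange. Called genes lie along the diagonal, and the genes far below it, such as Avp, Chat and Myo3b, are high in SE-WT 2 alone and called in neither fit.

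SE-WT 2 had 2 effects on the comparison. Genes high in that library alone got large fold changes with large errors, and other genes were called only when it was left out. Among the 6 genes whose fold change depended most on it were Xist, Avp, Myo3b, Chat and Gpr6, and none of these was called in either fit. Chat, the enzyme that makes acetylcholine, was at 0.516, 0.0693 and 0 CPM in sham-WT and 0.0944, 25.9 and 0.744 CPM in SE-WT, and only SE-WT 2 was high. Avp, the vasopressin precursor, was at 0.184, 0.18 and 0.134 CPM in sham-WT and 0.189, 55.7 and 0.36 CPM in SE-WT, with the same pattern. Drd1 and Drd2, dopamine receptors of striatal neurons, were at 22.4, 198 and 11.7 CPM and 1.32, 43 and 2.6 CPM in SE-WT. Xist, expressed from the inactive X of females, was at 2.95, 176 and 255 CPM in sham-WT and 1.27, 403 and 0.060 CPM in SE-WT, so that the high libraries were sham-WT 2, sham-WT 3 and SE-WT 2. Ddx3y, on the Y chromosome, was at 92.9, 0 and 0 CPM in sham-WT and 70.0, 0.56 and 83.1 CPM in SE-WT. Without SE-WT 2 both remaining SE-WT libraries have the Ddx3y level of males, while 1 of 3 sham-WT libraries does. With all 6 libraries the groups are not matched either, since SE-WT 1 and SE-WT 3 have that level but only sham-WT 1 among sham-WT does. Sex and SE therefore cannot be fully told apart in either fit. Of the 145 rises and 64 falls called with 6 libraries only, 136 and 64 had an adjusted p under 0.1 without SE-WT 2. Of the 170 rises and 95 falls called only without it, 49 and 20 had a level in SE-WT 2 within the sham-WT range or past it on the other side. In 5 of these 170 rises and 34 of these 95 falls, SE-WT 2 lay farther from sham-WT than both other SE-WT libraries.

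Immediate early genes were a group with more calls when SE-WT 2 was left out. Of 27 tested, 2 rose and 0 fell with 6 libraries, and 8 rose without SE-WT 2. The list stood at 0.70, -0.50 and 1.27 over sham-WT in SE-WT 1, 2 and 3, and 25 of its genes were lowest in SE-WT 2 among the SE-WT libraries. Atf3, a stress-induced transcription factor, was at 0.799, 1.11 and 0.922 CPM in sham-WT and 8.39, 5.95 and 9.81 CPM in SE-WT. It was high in all 3 SE-WT libraries, SE-WT 2 included (log2 fold change 3.09, adjusted p = 0.00270). Maff, a small partner of such factors, was likewise high in all 3, at 3.62, 2.73 and 2.53 CPM against 0.369, 0.208 and 0.101 CPM in sham-WT (log2 fold change 3.68, adjusted p = 0.00838). Fos, the classical marker of neuronal activity, was at 17, 10.5 and 6.81 CPM in sham-WT and 62.8, 20.3 and 88.6 CPM in SE-WT. Here SE-WT 2 lay just above the highest sham-WT library, the log2 fold change with 6 libraries was 2.32 (adjusted p = 0.0636, with a standard error of 0.56), and without SE-WT 2 it was 2.73 (adjusted p = 0.00954, with a standard error of 0.37). Npas4, an activity-dependent factor specific to neurons that was chosen after its values were seen, was at 11, 8.43 and 9.17 CPM in sham-WT and 66.9, 6.72 and 44 CPM in SE-WT. SE-WT 2 fell below every sham-WT library, and the log2 fold change was 2.04 (adjusted p = 0.154) with 6 libraries and 2.55 (adjusted p = 0.00237) without SE-WT 2. Myc was at 1.29, 0.735 and 1.36 CPM and 3.42, 2.06 and 3.23 CPM and passed in neither fit.

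**Figure D5:**
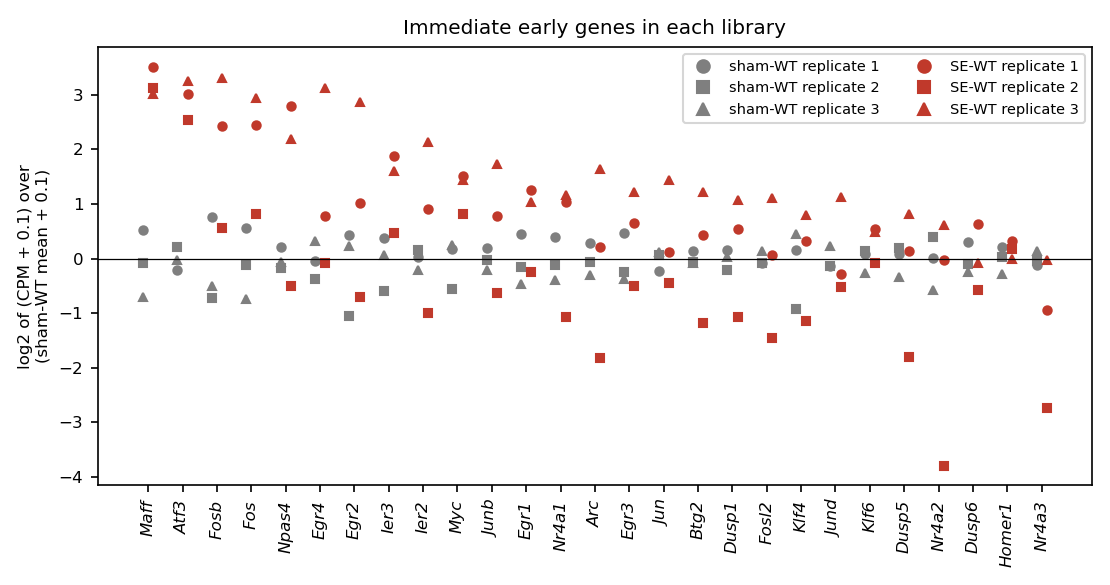
Log2 level of each immediate early gene in the 6 libraries over its sham-WT mean, 0.1 CPM being added to both; grey points are sham-WT, red points SE-WT, and circles, squares and triangles replicates 1, 2 and 3. SE-WT 2 is the lowest of the SE-WT libraries for 25 of 27 genes, and Atf3 and Maff are above sham-WT in all 3.

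Peptide and growth factor genes were called in part. Of 25 neuropeptide and granin genes, 3 rose and 1 fell, and without SE-WT 2 6 rose and 0 fell. Inhba, the activin A subunit, was at 9.21, 5.26 and 5.06 CPM in sham-WT and 29.3, 22.8 and 27.9 CPM in SE-WT, with no overlap (log2 fold change 2.03, adjusted p = 0.00741). Chga, chromogranin A of dense-core vesicles, was at 56.1, 56.6 and 57.9 CPM in sham-WT and 107, 80.4 and 116 CPM in SE-WT, a small and even rise (log2 fold change 0.83, adjusted p = 0.0271). Gal, the peptide galanin, was near 0 in sham-WT and at 0.944, 3.73 and 1.6 CPM in SE-WT (log2 fold change 4.97, adjusted p = 0.0450, and 4.24, adjusted p = 0.0792, without SE-WT 2). Npy, neuropeptide Y, was at 23.8, 22.8 and 26.7 CPM in sham-WT and 57.5, 41.7 and 30.0 CPM in SE-WT, above sham-WT in every SE-WT library, and did not pass (log2 fold change 0.82, adjusted p = 0.102). Penk, proenkephalin, is also a striatal gene and was at 7.51, 7.46 and 11.6 CPM in sham-WT and 34.5, 408 and 34.6 CPM in SE-WT. It did not pass with 6 libraries (log2 fold change 4.17, adjusted p = 0.0719), and without SE-WT 2 its log2 fold change was 1.98 (adjusted p = 0.00539). Hbegf, a ligand of the EGF receptor, rose from 9.83, 9.31 and 10.1 CPM to 35, 49.3 and 37.2 CPM (log2 fold change 2.06, adjusted p = 0.00167).

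The genes the study followed were at these levels. Lin28a had 3 counts in SE-WT 3 and 0 in the other 5 libraries, too few to test. Lin28b, its paralog, was at 3.55, 3.33 and 2.9 CPM in sham-WT and 5.11, 13.6 and 6.66 CPM in SE-WT, above sham-WT in each SE-WT library and highest in SE-WT 2 (log2 fold change 1.37, adjusted p = 0.0904). Against 4.57% and 0.832% of all genes tested, 2 of 14 tested genes of the LIN28 and let-7 pathway rose and 0 fell. They were Hmga2, a chromatin protein and let-7 target, with 0 counts in sham-WT and 0.708, 0.219 and 1.27 CPM in SE-WT (adjusted p = 0.0363), and Igf2bp3, an RNA-binding protein and let-7 target, at 0.0738, 0.0832 and 0.0168 CPM and 0.708, 0.601 and 0.696 CPM (log2 fold change 3.46, adjusted p = 0.0326, and 3.55, adjusted p = 0.0623, without SE-WT 2). Of 12 serotonin receptor genes in the list 0 were called with 6 libraries, and Htr1a and Htr3a fell without SE-WT 2 (adjusted p = 0.0420 and 0.0483, against 0.206 and 0.0518 with 6 libraries). Htr2b, which rose from 0 counts as given above, is not in the list. Htr4, a receptor coupled to cyclic AMP, was at 23.4, 28.3 and 33.7 CPM in sham-WT and 12.2, 15.2 and 21.2 CPM in SE-WT, with every SE-WT library below sham-WT (log2 fold change -0.81, adjusted p = 0.106). Htr2c was at 20.7, 44.1 and 76.2 CPM in sham-WT and 15.4, 59.1 and 40.1 CPM in SE-WT, a spread within groups as wide as between them (log2 fold change -0.30, adjusted p = 0.822). Htr1b was at 7.54, 11.3 and 8.01 CPM in sham-WT and 4.64, 41.5 and 9.78 CPM in SE-WT, high in SE-WT 2 only (log2 fold change 1.06, adjusted p = 0.463, and -0.30, adjusted p = 0.687, without SE-WT 2).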

How the data were processed

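Hippocampi of 3 SE-WT and 3 sham-WT mice were taken after saline perfusion, and RNA extracted with TRIzol was made into TruSeq stranded total-RNA libraries. Per the submitters' processing notes, the authors used bcl2fastq 2.20.0, Trimmomatic, HISAT2 2.1.0 with mm10 and StringTie 2.1.3b; the strand setting is not given in the sources used here. The authors deposited read counts and TPM per gene. The read counts, whole numbers without normalization, were used for every test, and the deposited TPM values only to compare 2 genes. Counts were filtered (filterByExpr, minimum count 10, minimum total 15), scaled by TMM and tested with the robust two-sided quasi-likelihood test of edgeR 4.0.16 (limma 3.58.1, R 4.3.3). Log2 fold changes are SE-WT minus sham-WT, and p-values were adjusted by Benjamini-Hochberg over all genes tested; a gene with an adjusted p under 0.05 was called. The fit was repeated without SE-WT 2. CPM use TMM-scaled library totals, and log2 CPM a prior count of 2. Positions and promoters come from RefSeq, GRCm38.p6, matched by gene ID (99.786%) or symbol. Replicate pairs differed by 60.8 to 468 times the sampling variance.

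Genes and lists were chosen with earlier results of these data known. Named genes were the 12 largest rises and falls that both fits called, provided the groups did not overlap and the higher mean reached 1 CPM (without predicted genes, clone names, small RNAs and pseudogenes), up to 4 members per list with the smallest p, Lin28a, Lin28b, Htr4, Htr2c, Htr1b, Xist, Ddx3y, and the 6 genes at 5 CPM or more in SE-WT 2 that depended most on it. Genes outside this rule are marked, and some genes that meet it are not reported here. Alternatives were DESeq2 1.42.0, limma voom with quality weights, RLE factors, no filter, all 13 libraries, a replicate block, Xist as covariate, a test against a 2-fold change, unadjusted p, leaving out dominant RNAs, and leaving out each library.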

Additional observations from a re-analysis of the deposited data

How the results depend on the processing

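With 1 library left out, rises ranged from 279 (without sham-WT 2) to 976 (without SE-WT 2) and falls from 8 (without sham-WT 2) to 329 (without SE-WT 3). Leaving out sham-WT 1 gave 483 and 35, sham-WT 3 417 and 18, and SE-WT 1 639 and 88. In all 6 such fits and the fit of 6 libraries, 264 rises and 8 falls were called. Against the 951 rises and 173 falls reported, DESeq2 called 1870 and 647, limma voom 1515 and 589, an unadjusted p under 0.05 with a 2-fold change 1597 and 307, and a test against a 2-fold change 272 and 4. All 13 libraries in 1 fit gave 1405 rises and 368 falls. Without SE-WT 2, DESeq2 called 1911 rises and 995 falls. That alternative, RLE factors, no filter, 12 libraries and voom for the fit without SE-WT 2 were chosen after seeing the data. The unadjusted p was under 0.05 for 4327 genes. Same-numbered libraries had deviations from their group means that correlated at 0.191, 0.017 and 0.088, with replicate 2 no closer to its own number than to another (0.054), so the numbers were not taken as a pairing. With them as a replicate block 642 genes rose and 86 fell. RLE factors, no filter, Xist as a covariate and leaving out dominant RNAs kept both counts within 1.5 times. Of the list medians, 746 stayed within 1 SD of the replicates and 47 moved. The cause was not tested. At this depth the change of a gene with 0 counts in a group can only be bounded, against 3 counts. Of the 128 named genes called with 6 libraries, all 128 kept their direction in every alternative run and 65 stayed called in each. The log2 fold changes that changed sign were all of genes not called. With 1 library left out, the range was -0.10 to 0.32 for Anln, -1.82 to 3.09 for Gpr6, -0.27 to 1.84 for H2-Eb1, -0.30 to 1.52 for Htr1b, -0.75 to 0.23 for Htr2c, -0.036 to 13.86 for Kdm5d, -0.44 to 4.96 for Myo3b and -7.83 to 0.58 for Xist. With limma voom Anln was at -0.18, Gpr6 at -0.65 and Htr1b at -0.11, and with Xist as a covariate Ddx3y was at -0.79, Eif2s3y at -0.34, Kdm5d at -1.07 and Htr2c at 0.17.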

Other observations

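Energy, protein synthesis and sterol genes showed few calls. Of 28 nuclear genes of oxidative phosphorylation 0 were called with 6 libraries, although 27 had a log2 fold change below 0 and the median was -0.29, against 0.015 over all genes tested. Ndufa4, a subunit of cytochrome oxidase, was at 223, 203 and 200.4 CPM in sham-WT and 144, 164 and 112 CPM in SE-WT, below sham-WT in every SE-WT library (log2 fold change -0.58, adjusted p = 0.0923), and it passed without SE-WT 2 (-0.70, adjusted p = 0.0467). Cytosolic ribosomal protein genes had 0 calls of 30 and a median of 0.040. Of 24 genes of cholesterol synthesis and uptake 0 were called, with a median of -0.21, whereas of 22 genes of cholesterol export and lipid handling 8 rose and 1 fell. Abca1, the pump that loads cholesterol onto apolipoproteins, was at 86.5, 88.1 and 102 CPM in sham-WT and 258, 389 and 283 CPM in SE-WT, without overlap and highest in SE-WT 2 (log2 fold change 1.75, adjusted p = 0.00330). Fabp7, a fatty acid binding protein of radial glia and astrocytes, went from 42.7, 43.4 and 44.8 CPM to 216, 142 and 119.6 CPM (log2 fold change 1.87, adjusted p = 0.00514).

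Stress genes rose in part. Of 24 genes of metallothioneins, iron and oxidative stress, 8 rose and 0 fell. Gpx1, a glutathione peroxidase, was at 49, 44.8 and 40.1 CPM in sham-WT and 114, 120.2 and 96 CPM in SE-WT (log2 fold change 1.3, adjusted p = 0.00339), and Ftl1, the ferritin light chain, at 223, 191 and 197 CPM in sham-WT and 460.1, 399 and 396 CPM in SE-WT (log2 fold change 1.04, adjusted p = 0.00543). Both were separated without overlap. Nfe2l2, the factor NRF2 that drives antioxidant genes, had a log2 fold change of 1.32 (adjusted p = 0.00402). Of 24 p53 target and apoptosis genes, 6 rose and 0 fell, among them the death receptor Fas (log2 fold change 1.96, adjusted p = 0.0150) and the initiator caspase Casp8 (log2 fold change 1.71, adjusted p = 0.00568). Of 27 heat shock and unfolded protein response genes, 3 rose and 1 fell. The rises were the small heat shock genes Hspb1, Hspb6 and Hspb8, of which Hspb8 did not pass without SE-WT 2 (adjusted p = 0.0599), and the fall was Hspa2, from 59.5, 64.4 and 66.3 CPM to 26.3, 24.3 and 36.5 CPM (log2 fold change -1.12, adjusted p = 0.0142). Hk2, the inducible hexokinase, rose from 4.83, 7.34 and 5.5 CPM to 24.1, 16.9 and 25.1 CPM (log2 fold change 1.9, adjusted p = 0.00543), and it and Pfkfb3 (log2 fold change 0.70, adjusted p = 0.0401, and adjusted p = 0.0629 without SE-WT 2) were the 2 rises among 23 genes of glycolysis and hypoxia, where 4.57% of all genes tested rose. Tgfbr2, a receptor for TGF-beta, went from 15.5, 13.4 and 19.5 CPM to 41.6, 34.9 and 47.1 CPM (log2 fold change 1.35, adjusted p = 0.00873).

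SE-WT 2, a library with the Xist level of a female, held 41 counts of Ddx3y, 50 of Uty, 23 of Eif2s3y and 18 of Kdm5d, all on the Y chromosome (Kdm5d being named after its values were seen), which is 0.559% to 1.45% of their mean in the 3 libraries with high Ddx3y. Sham-WT 2 and sham-WT 3 had 0 counts of all 4. The source of these counts was not tested.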
